A study of Mus musculus with 4 samples.

Results

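Cytoplasmic ribosomal protein genes code for the proteins of the large subunit (symbols in Rpl) and of the small subunit (Rps) of the ribosome that translates nuclear mRNAs. The members were all rows of the gene table whose symbol follows that naming, with Rpsa and Rpl34-ps1 added by name, which gave 85 of 17915 gene rows, 53 of the large and 32 of the small subunit. They were measured by RNA-seq in 4 libraries of mouse pulmonary endothelial cells, 2 of tdTomato+ cells and 2 of ZsGreen+ cells, numbered 1 and 2 within each group and titled as biological replicates. All 4 came from lungs of the genotype Cdh5-CreER;aSMA-LSL-Dre;NR1 after tamoxifen (5 doses) and 6 weeks of what the labels call TAC. Cdh5 is an endothelial cadherin gene, so its promoter directs the first recombinase to endothelial cells, and aSMA is the protein of the smooth muscle actin gene Acta2. The labels give neither ages nor the number of animals, and no untreated group was analysed here.

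Most ribosomal proteins are needed in equal numbers per ribosome, and their mRNAs are among the most abundant and evenly expressed in most cells. Many of these mRNAs begin with a run of pyrimidines (C or T), the TOP sequence, through which their translation responds to growth signals such as mTOR. Because their mRNAs have been copied back into the genome many times, most of these genes have processed pseudogenes of nearly the same sequence, and short reads can be shared between a gene and its copies.

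The libraries held 17050673 to 18574737 estimated counts. Acta2 reached 304 and 528 CPM (counts scaled to a common library total) in the tdTomato+ libraries, against 87.6 and 82.9 CPM in the ZsGreen+ libraries, a log2 fold change of 2.29 (edgeR quasi-likelihood test, adjusted p = 0.0432). All 10 endothelial markers listed were detected, with a summed level of 9565 to 12561 CPM in the 4 libraries. Leukocyte markers summed to 4168 and 2103 CPM in tdTomato+ 1 and 2 and to 2410 and 507 CPM in ZsGreen+ 1 and 2, mostly from Lyz2. Their median log2 ratio of library 1 to library 2 was 0.91 in tdTomato+ and 2.17 in ZsGreen+ cells. Of the 8 listed, 7 had a log2 fold change above 0 and 1 below, tdTomato+ over ZsGreen+ (median 0.83), with none called in edgeR. Only Ptprc and S100a8 were higher in both tdTomato+ libraries. Ptprc was 20.7 and 13.8 CPM in the tdTomato+ pair against 8.6 and 3.5 CPM in the ZsGreen+ pair. S100a8 was 14.6 and 21.4 against 12.7 and 6.1 CPM. The B cell gene Cd79a was 5.9 and 1.4 CPM in the tdTomato+ pair against 6.4 and 0.7 CPM in the ZsGreen+ pair. The T cell gene Cd3e was 2.7 and 0.7 against 2 and 0.1 CPM, and the B cell gene Ms4a1 was between 0.1 and 1.4 CPM. Mesenchymal markers summed to 85.4 and 167 CPM in tdTomato+ 1 and 2 and to 34.7 and 55.8 CPM in ZsGreen+ 1 and 2. Of the 5 listed, Col1a1, Dcn and Pdgfrb were higher in both tdTomato+ libraries and Pdgfra and Rgs5 overlapped, with none called in edgeR. Epithelial markers summed to 390 and 479 CPM in tdTomato+ 1 and 2 and to 241 and 506 CPM in ZsGreen+ 1 and 2. Of the 5 listed, Sftpb, Sftpc and Epcam were higher in both tdTomato+ libraries, again not called. Ager overlapped between the groups. Scgb1a1 was 47.6 and 54.4 CPM in the tdTomato+ pair against 17.7 and 383.9 CPM in the ZsGreen+ pair, and made up most of the sum in ZsGreen+ 2. The part of these cells in the members' values was not tested.

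Rpl34, a large subunit protein gene, and its intronless copy Rpl34-ps1 exchanged their estimated counts between libraries. The 2 stretches shown hold all the differences between their coding sequences, and bases outside the coding part were not compared. Rpl34 lies on chromosome 3 from 130726827 to 130730398 on the minus strand, and Rpl34-ps1 on chromosome 6 from 71124589 to 71125001 on the plus strand (GRCm38). GENCODE lists the copy as a processed pseudogene. The 354 bases of the Rpl34 coding sequence, stop codon included, aligned to the copy without a gap, with 352 identical bases and 2 substitutions, T132C and C318G, counted from 1 at the A of the start codon with the Rpl34 base first. The lines give bases 112 to 152 and then 298 to 338, read 5′ to 3′ from the GENCODE transcripts, with the differing base in capitals.
Rpl34, first stretch: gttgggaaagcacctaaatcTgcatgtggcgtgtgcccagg
Rpl34-ps1, first stretch: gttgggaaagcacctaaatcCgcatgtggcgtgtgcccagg
Rpl34, second stretch: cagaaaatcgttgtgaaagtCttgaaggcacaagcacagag
Rpl34-ps1, second stretch: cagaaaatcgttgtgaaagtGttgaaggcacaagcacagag

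In the tdTomato+ libraries, Rpl34 had 1233 estimated counts in library 1 and 14723 in library 2, while Rpl34-ps1 had 9503 and 10.3. In the ZsGreen+ libraries, Rpl34 had 1500 counts in library 1 and 11218 in library 2, while Rpl34-ps1 had 13114 and 18.2. The copy therefore held 88.5% and 89.7% of the summed counts in the libraries numbered 1 and 0.07% and 0.16% in those numbered 2, in both groups alike. The exchange followed the replicate number and not the reporter. The estimated counts are not whole in these rows, which is how an estimated count records reads shared between rows.

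Added together, the pair gave 591 and 774 CPM in the tdTomato+ pair against 925 and 616 CPM in the ZsGreen+ pair, and the groups overlapped. The log2 fold change of the sum was -0.17 ± 0.26 (SE), tdTomato+ over ZsGreen+ (edgeR quasi-likelihood test, adjusted p = 0.929). Its sign turned when tdTomato+ 1 (0.004) or ZsGreen+ 1 (0.15) was left out, and in TPM it was 0.03. Taken apart, Rpl34 differed by 0.24 ± 1.11 (log2, SE) and Rpl34-ps1 by -0.67 ± 2.43, with adjusted p of 0.979 and 0.975 in edgeR. These 2 errors were larger than those of any other member tested, which lay between 0.168 and 0.422. They came from the fit without a replicate block, where the exchange by replicate number counts as spread within groups. With a replicate block Rpl34-ps1 was -0.71 and Rpl34 -0.07 (edgeR adjusted p = 0.138 and 0.96).

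A difference of 16-fold or more between the 2 libraries of a group, in the same direction in both groups, was found for 5 of 13177 genes tested (0.0379%), and Rpl34-ps1 was the only member among them. This threshold was chosen after the values were seen. The other 4 genes were Nr1d1 and Dbp, which belong to the circadian clock and its output, with Serpina3i and Nxpe4. Nr1d1 was 6.3 and 4 CPM in the libraries numbered 1 against 123 and 93.4 CPM in those numbered 2. The 4 genes were low where Rpl34-ps1 was high.

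**Figure D1:**
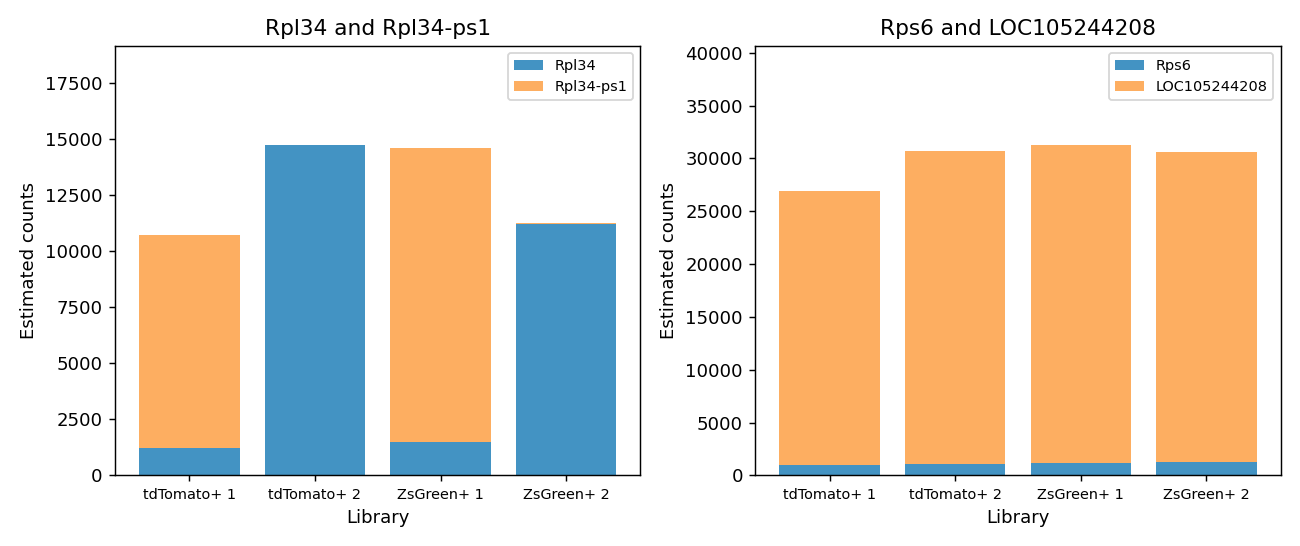
Stacked bars give the estimated counts in each of the 4 libraries (vertical axis) for Rpl34 with Rpl34-ps1 (left) and Rps6 with LOC105244208 (right). Rpl34-ps1 holds 88.5% and 89.7% of its pair in the libraries numbered 1 and under 1% in those numbered 2, while LOC105244208 holds 95.9% to 96.5% of its pair in all 4.

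Rps6, the small subunit protein phosphorylated by the S6 kinases, was a second gene with a copy that held most of the pair's counts. It lies on chromosome 4 from 86854099 to 86857367 on the minus strand (GRCm38). Rps6 had 1011 and 1086 counts in the tdTomato+ libraries and 1132 and 1250 in the ZsGreen+ libraries. The row LOC105244208, which the file describes as ribosomal protein S6, pseudogene 4, and which is no member, had 25898 and 29670 counts in tdTomato+ cells and 30141 and 29342 in ZsGreen+ cells. It lies on chromosome 2 from 75191038 to 75191854, over the GENCODE pseudogene Rps6-ps4, whose sequence matched the Rps6 coding sequence at 750 of 750 bases. Reads from the coding part therefore cannot be told apart between the rows.

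In contrast to the Rpl34 pair, the division of the Rps6 pair hardly varied, with 95.9% to 96.5% of the summed counts on the copy. Both tdTomato+ libraries were below both ZsGreen+ libraries in the Rps6 row, at 55.6 and 57 CPM against 71.6 and 68.5 CPM. The log2 fold change of this row stood at -0.31 ± 0.17 (SE, edgeR adjusted p = 0.713). With both rows summed, an alternative chosen after seeing the data, it was -0.24 ± 0.20 (adjusted p = 0.842). The level of Rps6, 78.3 TPM over the 4 libraries (a count scaled by transcript length and by the library's total), is the level of that row alone.

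Of the 85 members, 25 had a count that was not whole in at least 1 library (29.4%, against 21.2% of all rows). Of the other copies, 3 were compared with their genes. Rps27rt, a copy of Rps27, held 1.92% to 3% of their summed counts, Rpl37rt held 0.42% to 0.94% of those of Rpl37, and Rpl31-ps12 held 0.1% to 0.39% of those of Rpl31.

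Most members were among the most abundant rows of the table. By mean TPM over the 4 libraries, 73 of 85 were at 500 TPM or more, a level reached by 355 of all 17915 rows (1.98%). A further 9 lay between 50 and 500 TPM and 3 below. The median member was at 1598 TPM, against 5.09 TPM for the median row of the table. Of the 10 highest members in each library, 8 were shared by all 4.

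Rpl41, the shortest member by coding length, was highest, at 6263 and 7459 TPM in tdTomato+ cells and 9962 and 5776 TPM in ZsGreen+ cells. ZsGreen+ 1 was the highest of the 4 and ZsGreen+ 2 the lowest, so the ZsGreen+ values enclosed both tdTomato+ values. Rps18 followed at 6581 ± 200 TPM in tdTomato+ and 6405 ± 923 TPM in ZsGreen+ cells (mean ± SD, n = 2 each), and Rpl13 at 6335 ± 58.3 and 6236 ± 717 TPM. Next came Rps27 (5452 ± 1022 and 6028 ± 2845 TPM) and Rpl32 (5668 ± 146 and 5725 ± 815 TPM). The order of these 5 did not hold beyond the spread between libraries. In all 5, the SD between the ZsGreen+ libraries was larger than that between the tdTomato+ libraries.

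The lowest members were paralogs and rows affected by copies. Rpl3l, a paralog of Rpl3 best known from striated muscle, had 8, 4.55, 5 and 1 counts in tdTomato+ 1 and 2 and ZsGreen+ 1 and 2, against 22598 to 27194 counts of Rpl3. Rpl39l, a paralog of Rpl39 best known from the testis, had 2, 4, 1 and 0 counts against 1894 to 3227 counts of Rpl39. Neither paralog passed the filter on low counts, which left 83 members to test. Rpl32l was at 24.2 TPM, Rpl7l1 at 65.9 TPM and Rps6 at 78.3 TPM.

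**Figure D2:**
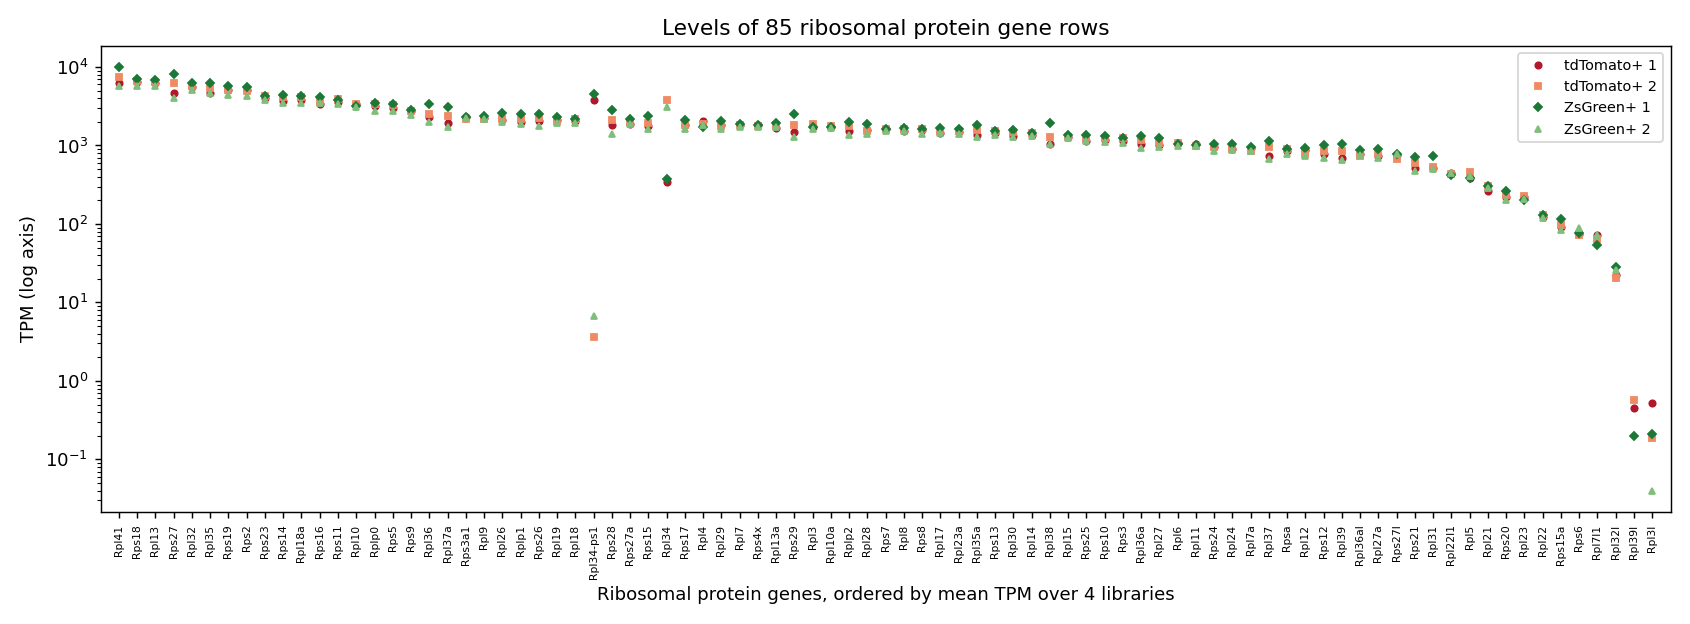
Points give the TPM of each of the 85 members in each of the 4 libraries on a log axis, ordered by mean TPM, with values of 0 left out. Most members lie within a narrow band, with Rpl41 at the upper end and Rpl39l and Rpl3l below 1 TPM, while the 2 rows of Rpl34 each spread over more than 10-fold.

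Paralogs were compared with their parent genes within each library by TPM. Rpl22l1, the paralog of Rpl22, made up 78.1% and 76.8% of their summed TPM in tdTomato+ cells and 76.8% and 79.1% in ZsGreen+ cells. By counts Rpl22 was the larger, with 2779 to 3239 counts against 1472 to 1637, since the table gives Rpl22 a longer transcript. Rpl36al made up 43.2% and 38.6% of its sum with Rpl36a in tdTomato+ cells and 39.6% and 44.8% in ZsGreen+ cells, so neither copy was minor. Rps27l, a paralog of Rps27 that p53 is known to induce, made up 13.6% and 9.72% in tdTomato+ cells and 8.8% and 16.1% in ZsGreen+ cells. Its own level stayed between 665 and 776 TPM, and the share moved with Rps27, which ran from 4016 to 8040 TPM. Rpl7l1, a relative of Rpl7, made up 2.81% to 3.98%.

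None of these ratios separated the groups. The difference of the log2 ratio to the parent gene, tdTomato+ minus ZsGreen+, was -0.04 for Rpl22l1, -0.08 for Rpl36al, -0.06 for Rps27l and 0.13 for Rpl7l1, each smaller than the SD within groups (0.111, 0.207, 0.566 and 0.278). Exact two-sided permutation p-values were 0.667 for Rpl36al and 1 for the other 3, where 2 libraries against 2 cannot give less than 0.333. No gene row carries the symbol Rpl10l or Rps4l, so these paralogs could not be compared.

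Between tdTomato+ and ZsGreen+ cells, 0 of the 83 members tested were called at an adjusted p below 0.05 in edgeR. An unadjusted p below 0.05 was found for 0 of the 83, against 1155 of all 13177 genes tested. Of all 13177 genes tested, 40 were called (0.304%), 22 higher and 18 lower in tdTomato+ cells. DESeq2 called 0 of 85 members, against 326 of the 16747 genes it fitted. In bulk libraries such as these, fewer cells of a type and less RNA per cell cannot be told apart. Nevertheless 82 of the 83 had a log2 fold change below 0, against 50.7% of all genes tested, with a median of -0.21 against -0.01 for all genes, while in TPM (limma on log2(TPM + 1)) 33 of 83 were above 0 and the median was -0.01 against 0.12 for all genes. The large and the small subunit did not differ in this, with medians of -0.21 over 51 genes and -0.20 over 32.

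The shared direction rested on 1 library. ZsGreen+ 1 was the highest of the 4 libraries for 81 of 83 members, against 29.3% of all genes tested, and the 2 exceptions were Rpl34 and Rpl7l1. Relative to the mean of each member over the libraries, the median member stood at 0.35 (log2) in ZsGreen+ 1, at -0.18 in ZsGreen+ 2 and at -0.17 and -0.01 in tdTomato+ 1 and 2. Without ZsGreen+ 1, 71 of 83 members were higher in tdTomato+ cells and the median log2 fold change turned to 0.10. Only 6 members had both tdTomato+ libraries below both ZsGreen+ libraries, against 18.2% of all genes tested, and 0 had both above, against 19.9%. The 6 were Rps6, Rps3a1, Rpl22l1, Rpl32l, Rpl36al and Rps27l.

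As a share of all counts, members took 5.44% and 5.94% in the tdTomato+ libraries and 6.87% and 5.12% in the ZsGreen+ libraries. The ZsGreen+ values enclosed the tdTomato+ values, and the difference of the means was -0.30 percentage points (exact two-sided permutation p = 1, n = 2 each). Their share of TPM was 15.8% and 16.7% in tdTomato+ cells and 18.7% and 14.5% in ZsGreen+ cells.

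**Figure D3:**
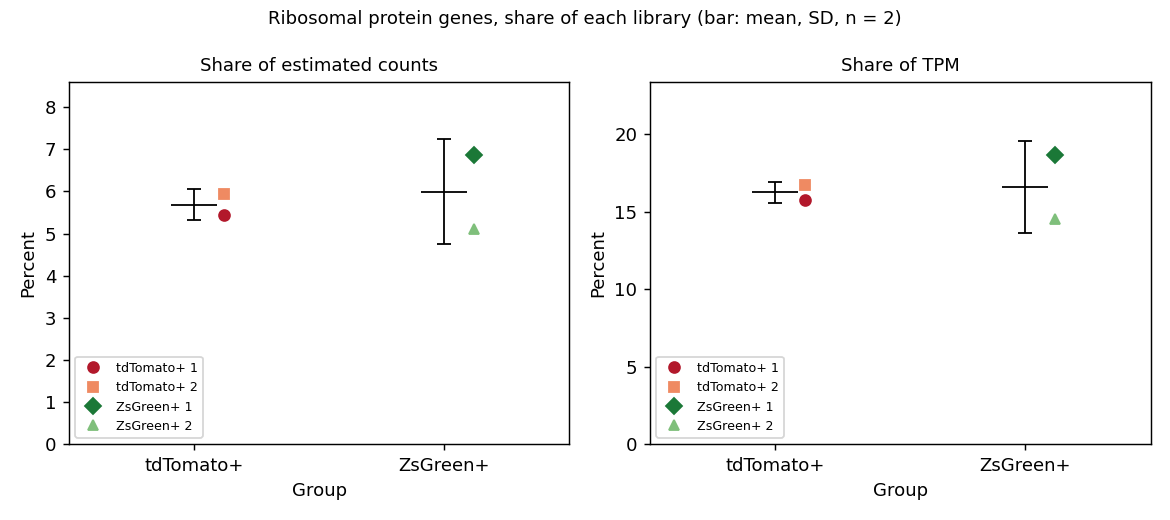
Points give the share of estimated counts (left) and of TPM (right) that the 85 members took in each library, in percent, with the mean and SD of the 2 libraries of each group. The ZsGreen+ libraries lie at 6.87% and 5.12% of counts, above and below both tdTomato+ libraries.

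Among members at a mean of 10 CPM or more, the lowest log2 fold changes after that of Rpl34-ps1 were those of Rpl38, Rps29, Rpl31 and Rpl41. Rpl38, a small protein of the large subunit on chromosome 11 from 114667818 to 114672333, was 93.5 and 126 CPM in the tdTomato+ pair against 232 and 99.5 CPM in the ZsGreen+ pair. The log2 difference was -0.59 ± 0.38 (SE, edgeR adjusted p = 0.781), and without ZsGreen+ 1 it was 0.14. Rps29, a zinc-binding protein of the small subunit, was 186 and 246 CPM against 416 and 169 CPM, with a log2 fold change of -0.44 ± 0.40 (edgeR adjusted p = 0.859). Rpl41 was 1008 and 1296 CPM against 2089 and 986 CPM, with a log2 fold change of -0.42 ± 0.36 (edgeR adjusted p = 0.848). In all 3, ZsGreen+ 1 stood high and ZsGreen+ 2 was near or below tdTomato+ 1, and without ZsGreen+ 1 the values of Rps29 and Rpl41 turned to 0.35 and 0.23. Rpl31 was 274 and 295 CPM against 482 and 278 CPM, with a log2 fold change of -0.42 ± 0.28 (edgeR adjusted p = 0.786) that turned to 0.03 without ZsGreen+ 1.

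At the other end, Rpl4 and Rpl3, which have the longest coding sequences of the members tested, hardly differed. Rpl4 was 1535 and 1505 CPM in the tdTomato+ pair against 1644 and 1434 CPM in the ZsGreen+ pair, a log2 fold change of -0.02 ± 0.19 (SE). Rpl3, which helps to form the peptidyl transferase centre, was 1246 and 1428 CPM against 1563 and 1238 CPM, a log2 fold change of -0.07 ± 0.21. Rpl23 was 117 and 129 CPM against 137 and 116 CPM, and Rpl7l1 was 108 and 100 CPM against 99.8 and 113 CPM. Their adjusted p in edgeR lay between 0.973 and 0.992.

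The stalk proteins, which bind the elongation factors, behaved alike. Rplp0 was 2282 and 2539 CPM in the tdTomato+ pair against 3160 and 2107 CPM in the ZsGreen+ pair, Rplp1 was 348 and 404 against 565 and 343 CPM, and Rplp2 was 255 and 311 against 428 and 238 CPM. In all 3, ZsGreen+ 1 was highest and ZsGreen+ 2 lowest. Rpl5 and Rpl11, which bind the 5S rRNA and can restrain Mdm2, were 269 and 323 against 326 and 297 CPM, and 560 and 563 against 679 and 556 CPM. Rpsa, also known as the laminin receptor, was 880 and 975 against 1167 and 832 CPM. The log2 fold changes of these 6 ran from -0.27 (Rplp1) to -0.08 (Rpl5), with adjusted p in edgeR from 0.877 to 0.966. Without ZsGreen+ 1, those of Rplp0, Rplp1, Rplp2, Rpl11 and Rpsa turned to values from 0.02 (Rpl11) to 0.25 (Rplp2).

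**Figure D4:**
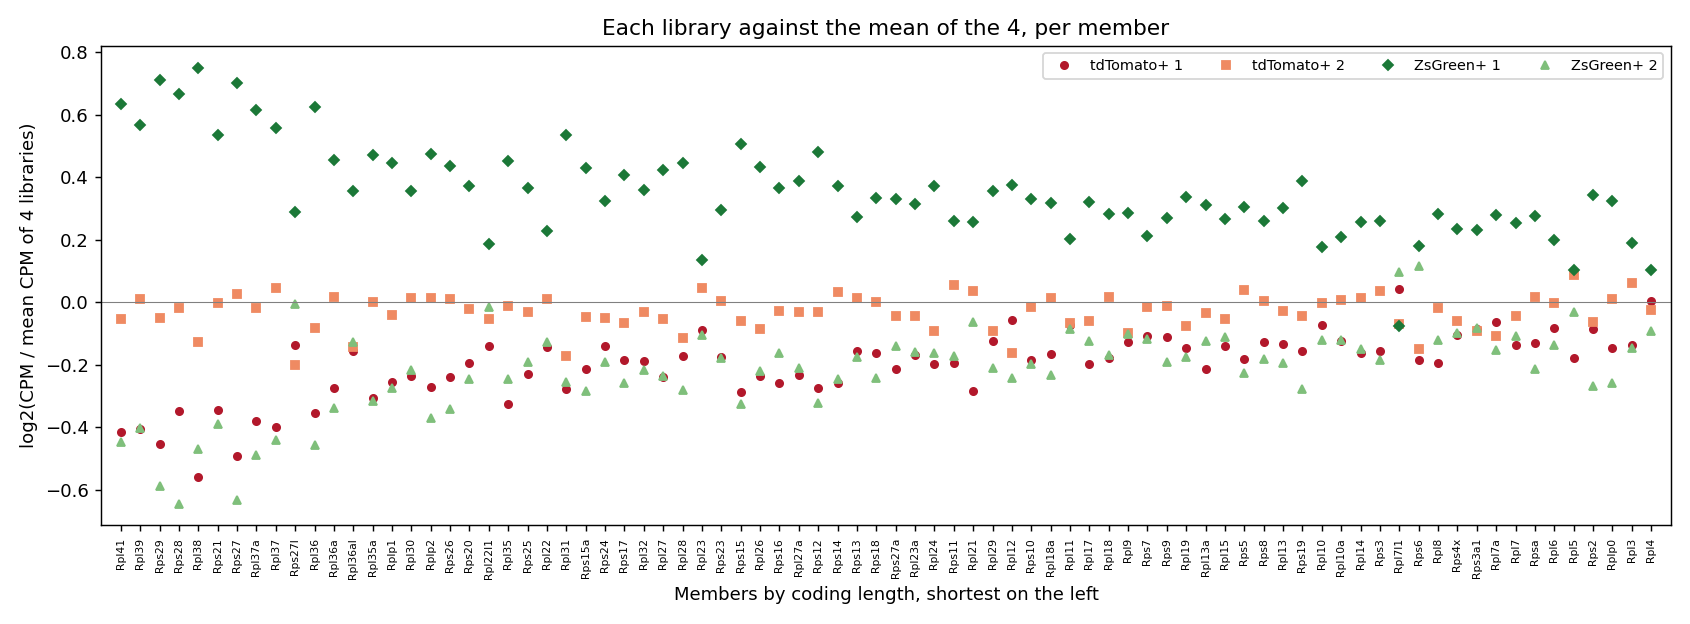
Points give, for 80 members ordered by coding length with the shortest on the left, the log2 ratio of each library's CPM to the mean of the 4 libraries. ZsGreen+ 1 lies above the other libraries for nearly all members and farthest above for the shortest, and ZsGreen+ 2 and tdTomato+ 1 lie lowest.

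The ratio of ZsGreen+ 1 to ZsGreen+ 2 went with coding length. Coding lengths (without the stop codon) came from GENCODE for 80 members at 1 CPM or more in every library, the Rpl34 rows left out. The median log2 ratio of ZsGreen+ 1 to ZsGreen+ 2 was 1.11 for the 9 members under 300 bases, 0.66 for the 28 from 300 to under 450, 0.47 for the 19 from 450 to under 600, 0.39 for the 20 from 600 to under 900 and 0.46 for the 4 of 900 or more. Across the 80 members the ratio and the log2 length had r = -0.75, as a description of genes that share the same libraries. The median log2 ratio of the tdTomato+ mean to ZsGreen+ 2 was 0.28, 0.10, 0.09, 0.07 and 0.15 in the same classes. ZsGreen+ 2 was thus itself lowest against tdTomato+ cells for the shortest members, and the pattern cannot be placed in ZsGreen+ 1 alone. In the tdTomato+ pair library 1 was the lower one, and the median log2 ratio of tdTomato+ 1 to tdTomato+ 2 was -0.40 for the 9 shortest and -0.11 for the 20 from 600 to under 900 bases. Rps27, of 252 bases, had the largest ratio of ZsGreen+ 1 to ZsGreen+ 2, at 1.33 (log2).

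Among 11235 genes that are no members, the median log2 ratio of ZsGreen+ 1 to ZsGreen+ 2 was also highest under 300 bases, at 0.27, and was 0.19, 0.09, 0.06 and -0.04 in the next 4 classes of length, with r = -0.15. The part of length in the members' values was not tested.

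**Figure D5:**
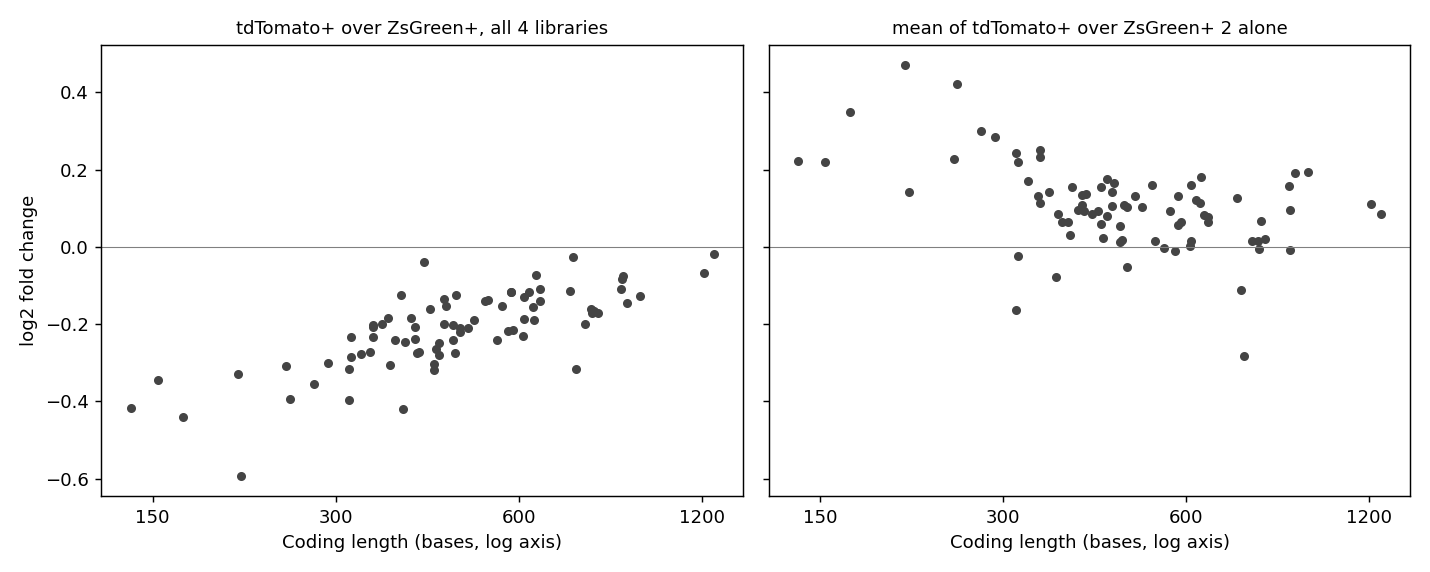
Each point is 1 of 80 members, with its coding length in bases on a log axis and the log2 fold change of tdTomato+ over ZsGreen+ cells from all 4 libraries (left) or of the tdTomato+ mean over ZsGreen+ 2 alone (right). On the left all 80 points lie below 0, lowest for short members, and on the right 70 of 80 lie above 0.

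The sequences around annotated starts are shown for the members with the lowest and highest fold changes, where RefSeq has one, since a TOP run begins at the start of the mRNA. Each line gives 15 bases before and 15 from the start, 5′ to 3′ on the gene's strand (GRCm38), with the longest run of C and T that touches the 10 bases on either side in capitals. The start used is the first that RefSeq lists. Among these lines only the run of Rpl38 crosses the start, and those of Rpl31, Rpl34 and Rpl4 lie wholly before it.
Rpl38 (chr11:114668565-114668594, plus strand): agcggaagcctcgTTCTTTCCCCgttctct
Rpl31 (chr1:39367836-39367865, plus strand): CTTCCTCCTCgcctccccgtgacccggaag
Rpl41 (chr10:128549154-128549183, minus strand): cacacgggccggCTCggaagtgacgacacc
Rpl34 (chr3:130730384-130730413, minus strand): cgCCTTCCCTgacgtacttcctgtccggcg
Rpl4 (chr9:64173372-64173401, plus strand): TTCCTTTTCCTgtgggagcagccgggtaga
Rpl23 (chr11:97782425-97782454, minus strand): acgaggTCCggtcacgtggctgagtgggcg
Rpl7l1 (chr17:46782642-46782671, minus strand): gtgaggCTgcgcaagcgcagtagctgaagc

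Runs of 8 or more were present among the lowest fold changes (Rpl38, Rpl31) and among the highest (Rpl34, Rpl4). Rpl34 is among the highest only by its own row, at 0.24, while its sum with Rpl34-ps1 was at -0.175. Rpl4 was at -0.02. Of 64 members with a RefSeq promoter, 28 had such a run (43.8%), against 13.4% of 26961 other promoters. The count includes runs that end before the annotated start, so it is not a count of TOP sequences. From 250 bases before to 50 after the start, on either strand, the letters CCGGAAGT, an ETS-type motif, were present in 12 of the 64 (18.8%, against 4% of the others). The letters GCCATNTT, a YY1-type motif, were also present in 12 of the 64 (18.8%, against 6.2%). TATAAA was present in 7 (10.9%, against 14.2%). These are matches of letters and not binding sites. The 26961 other promoters were those of every other RefSeq symbol and were not limited to genes detected in these cells. The shares therefore do not compare members with other expressed genes.

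Genes that work with the ribosome were read from lists. Of 22 translation factors and other TOP mRNAs, 0 were called, 17 had a log2 fold change below 0 (median -0.12), and 15 were highest in ZsGreen+ 1 (68.2%). Tpt1, a growth-related TOP mRNA, had the smallest p, at 584 and 567 CPM in the tdTomato+ pair against 815 and 595 CPM in the ZsGreen+ pair (edgeR adjusted p = 0.826). Fau, which codes for a small subunit protein fused to a ubiquitin-like protein, was likewise highest in ZsGreen+ 1, at 435 and 541 CPM in the tdTomato+ pair against 666 and 447 CPM in the ZsGreen+ pair. Rack1, a protein of the small subunit, was 526 and 523 against 696 and 475 CPM.

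Of 35 genes of ribosome biogenesis, 0 were called, 22 were below 0 (median -0.03), and 10 were highest in ZsGreen+ 1 (28.6%, near the 29.3% of all genes tested). Sbds, which helps to release Eif6 from the large subunit, had the smallest p, at 80.5 and 86.1 CPM in tdTomato+ 1 and 2 against 95.5 and 111 CPM in ZsGreen+ 1 and 2 (log2 fold change -0.31 ± 0.17, edgeR adjusted p = 0.733). Of 19 genes of growth signalling to the ribosome, 0 were called, 13 were below 0 (median -0.08), and 8 were highest in ZsGreen+ 1 (42.1%). With 0.304% of all genes called, 0 calls in lists of this size are near the background. Mycn had the smallest p of that list, at 20.6 and 12.2 CPM in the tdTomato+ pair against 35.2 and 28.3 CPM in the ZsGreen+ pair (log2 fold change -0.95 ± 0.30, edgeR adjusted p = 0.374).

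The 78 mitochondrial ribosomal protein genes, which serve the ribosome of the mitochondrion, had nearly the same median log2 fold change as the members, -0.20, with 71 below 0 and 0 called. Of the 78, 59 were highest in ZsGreen+ 1 (75.6%, against 29.3% of all genes tested). Both tdTomato+ libraries were below both ZsGreen+ libraries for 41 of the 78, against 6 of 83 members and 18.2% of all genes tested. Mrpl41 had the smallest p, at 20.7 and 22.8 CPM in the tdTomato+ pair against 30.8 and 32.4 CPM in the ZsGreen+ pair (log2 fold change -0.54 ± 0.20, edgeR adjusted p = 0.497). The difference between the 2 families was not tested.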

How the data were processed

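Total RNA was extracted with a RNeasy Micro kit, amplified with the Discover-sc WTA Kit V2 and made into libraries with a TruePrep kit, per the labels' protocols. The submitters' processing notes name RSEM 1.3.1, DESeq2 1.4.5 and the builds mm10 and GRCm38; no aligner is named there. The deposited table gives the authors' estimated counts and TPM per gene. Strand use is not stated.

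Counts were rounded and tested with edgeR 4.0.16 (quasi-likelihood, TMM factors, filterByExpr with a minimum count of 10, Benjamini-Hochberg adjustment, R 4.3.3), over 13177 genes in 4 libraries, with no block. The procedure was tested on simulated data. CPM are TMM-scaled, with factors of 1.045 and 1.026 in tdTomato+ 1 and 2 and of 0.927 and 1.005 in ZsGreen+ 1 and 2. SE are derived from the F statistic. Labels call the replicates biological but name no animals, so p-values reflect only how far these libraries vary, which may be technical. With 2 libraries a group, the common biological coefficient of variation was 26.1%. Alternatives were RLE factors, scaling without members, DESeq2 1.42.0, no filter, each library left out, a replicate block, and limma 3.58.1 with trend on log2(TPM + 1) or log2(TPM + 0.1). Members with fold changes named were the 5 lowest and 5 highest at a mean of 10 CPM or more, the paralog pairs, and Rplp0, Rplp1, Rplp2, Rps6, Rpl5, Rpl11 and Rpsa. Levels were named for the 5 highest and lowest by TPM. For each context list, the gene with the smallest p at a mean of 1 CPM or more was named; Acta2, Fau and Rack1 were named by choice. Members and lists were chosen with earlier results of these data known. Sequences are from GENCODE M21 and RefSeq (GRCm38); 64 members had a promoter entry. One gene of the context lists is not reported here.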

Additional observations from a re-analysis of the deposited data

How the results depend on the processing

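No member was called under any alternative run. The count of all genes called was 40, and was 326 with DESeq2, 128 without a filter, 934 with the replicate block, 22 with limma on log2(TPM + 0.1), 0 with limma on log2(TPM + 1) without a filter, and from 4 (without tdTomato+ replicate 2) to 304 (without ZsGreen+ replicate 1) when 1 library was left out. The members' median log2 fold change ran from -0.451 to 0.104 when 1 library was left out, and turned only without ZsGreen+ 1. With the replicate block it was -0.18. Same-numbered libraries deviated together over all genes (r = 0.45 between the groups' differences of library 1 minus 2) and against each other over members without the Rpl34 rows (r = -0.73). With limma on log2(TPM + 1) it was -0.01 while the median of all genes was 0.12, so relative to all genes the members were still lower, and 33 of 83 were above 0. The large minus small subunit difference was -0.014, and ran from -0.048 to -0.004 with 1 library left out. The difference in share of counts ran from -1.183 to 0.575 percentage points.

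The summed Rpl34 rows ran from -0.442 to 0.15 with 1 library left out, and were 0.025 in limma on TPM under all 3 settings. In limma on log2(TPM + 1), on log2(TPM + 0.1) and without a filter, Rpl3 was 0.0949 or 0.095, Rpl23 was 0.123, Rpl7l1 was 0.126 or 0.128, Rpl4 was 0.141, Rplp0 was 0.0556, Rpl5 was 0.0798 or 0.08, Rpl11 was 0.0258, Rpsa was 0.0647 or 0.0648. On log2(TPM + 1) other members kept their sign at smaller values: Rpl38 was -0.275, Rps29 -0.126, Rpl41 -0.15, Rpl31 -0.207, Rplp2 -0.00102 and Rps6 -0.156, and Rplp1 was -0.0562. With the replicate block Rpl34 was -0.0705 and Rpl34-ps1 was -0.708. Scaling without members gave Rpl4 0.000294. With 1 library left out the ranges were Rpl3 -0.228 to 0.113, Rpl23 -0.156 to 0.0886, Rpl5 -0.192 to 0.047, Rpl34-ps1 -9.61 to 8.05, Rpl7l1 -0.109 to 0.0605, Rpl4 -0.116 to 0.0863, Rpl34 -2.37 to 2.14, Rpl38 -1.08 to 0.145, Rps29 -0.951 to 0.351, Rpl31 -0.764 to 0.0324, Rpl41 -0.862 to 0.225, Rplp0 -0.394 to 0.196, Rplp1 -0.592 to 0.133, Rplp2 -0.597 to 0.252, Rpl11 -0.277 to 0.0175, Rpsa -0.335 to 0.159. The cause was not tested.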
